A study of Mus musculus with 24 samples.

Results

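The genomic windows described here are 100 bp stretches that carried a methylation score above 0 in nearly every animal and yet stayed at a middle level in control fat. A window was taken when its score was 0 in at most 2 of the 12 animals and its mean over the 6 vehicle animals was below 0.60. The rule found 380 of the 1000 deposited windows, or 38%. Of the other windows, 267 met the same limit on zeros but had a vehicle mean of 0.60 or more, and 353 were at 0 in 3 or more animals. The members were chosen by these scores, so their middling vehicle mean and their few zeros are a description and not a result.

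Fat was taken from male mice of the outbred CD-1 stock at 19 weeks of age. Their mothers had been dosed by mouth from gestational day 9 to 18, either with bisphenol A (BPA) at 500 ug/kg/day or with corn oil alone, the vehicle. All offspring ate the same standard chow with 4% fat, and the labels name no altered allele. Each of the 12 animals, 6 per group, gave a library of methylated epididymal fat DNA and a library of RNA from the same tissue. In the deposited RNA table, the authors mark vehicle animals 2, 3 and 5 as low in Fggy, a carbohydrate kinase gene, and vehicle animals 1, 4 and 6 as high. Litters are not labelled, and every p-value assumes independent animals.

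In mammals, DNA methylation sits mostly on cytosines followed by guanine (CpG sites), and most CpGs outside CpG islands are methylated in adult tissue. In MBD-seq, sheared DNA is captured on the MBD2 protein, which binds methylated CpGs, so a fragment is recovered the better the more methylated CpGs it carries, and a window with few CpGs gives little signal even when fully methylated. The deposited score lies between 0 and 1, and its definition, the read coverage and the selection of windows are not stated in the labels or headers. The score is therefore not read as a percentage of methylated molecules, no interval for counting error was set, and the depth is unknown. Positions are on the mm9 build. The bases and genes under the windows were not analysed here, since no mm9 genome or annotation was used.

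The tissue carried the RNA of white fat. All 10 adipocyte markers listed were found, and the adipocyte hormone gene Adipoq had a normalized RNA signal of 22029.6 to 41685 in the 12 animals. Markers of duct and tubule epithelium differed widely between animals, with a summed signal of 123.3 to 13953 over 7 genes, and were highest in BPA animal 5, vehicle animal 6 and BPA animal 2. In bulk tissue, a change in cell makeup and a change within cells cannot be told apart.

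The 2 methylation libraries that stood apart were both from BPA animals. Over the 380 windows the median score was 0.71 in BPA animal 1 and 0.43 in BPA animal 3, while the other 4 BPA animals lay at 0.49 to 0.51 and the 6 vehicle animals at 0.49 to 0.52. BPA animal 1 had the highest score of all 12 animals, without a tie, in 375 of the 380 windows, and was at 0 in none of them. BPA animal 3 was lowest without a tie in 106 windows and was at 0 in 64. The same offset ran through the windows with a higher vehicle mean, where the median was 0.87 in BPA animal 1, 0.59 in BPA animal 3 and 0.65 to 0.70 in the other animals. In RNA, the summed adipocyte marker signal was 510174 in BPA animal 1, the highest of the 12, with 288034 of it from Lpl. It was 363698 in BPA animal 3, within the 278480 to 471065 of the others. Single markers were mixed: BPA animal 1 was highest for Plin, Lpl, Pparg, Retn and Slc2a4, but not for Adipoq, Cidec, Fabp4, Lep and Cfd. The summed duct epithelium signal was 166.1 and 449.1 in these animals, within the range of the others. Single markers were mixed here too. BPA animal 3 was the highest of the 12 for Krt18, at 102.7 with vehicle animal 6 next at 64.8, but not for the other genes. BPA animal 1 was the lowest of the 12 for Pax8, Krt8 and Krt18, but not for the other genes. The part of tissue makeup in the offset was not tested. The main values of the BPA contrast are given with and without BPA animal 1, and the median difference and the named windows also without both.

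**Figure D1:**
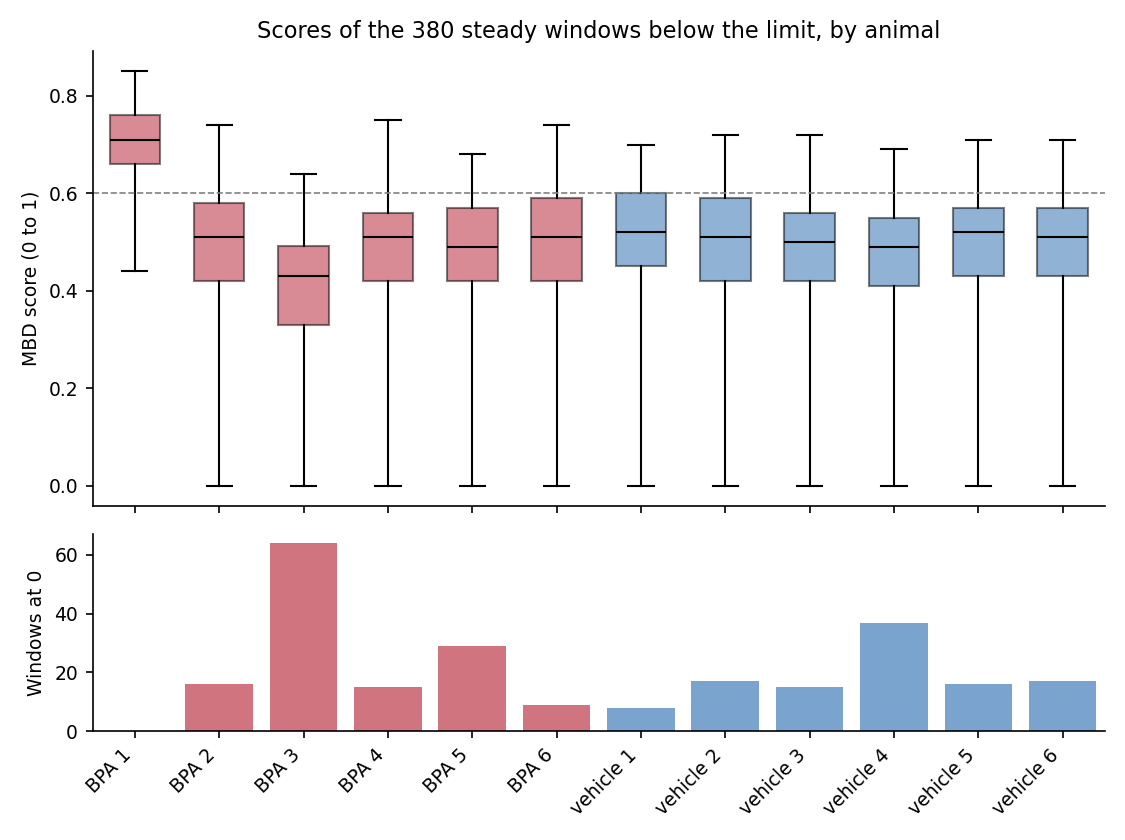
Upper panel, MBD score (0 to 1) of the 380 windows in each animal, with the median, the quartiles as a box, whiskers to the lowest and highest window and the limit of 0.60 dashed; lower panel, number of these windows at a score of 0. BPA animals are red and vehicle animals blue; BPA 1 has a median of 0.71 and no window at 0, and BPA 3 a median of 0.43 and 64 windows at 0.

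Scores took only certain values. In vehicle animal 1, the commonest scores above 0 were 0.51 in 45 windows, 0.42 in 42, 0.60 in 35, 0.56 in 25 and 0.63 in 22. These levels come closer together as the score rises. The other vehicle animals had nearly the same levels, with 0.42 or 0.43 and 0.51 or 0.52 as the commonest pair in each. Over all vehicle scores above 0 in the 380 windows, 18.8% lay from 0.41 to 0.44, 21.7% from 0.50 to 0.53, 16.2% from 0.55 to 0.58 and 11.2% from 0.59 to 0.61. In BPA animal 3 the commonest levels were 0.43 in 60 windows, 0.33 in 41 and 0.52 in 36. In BPA animal 1 they were 0.78 in 30, 0.75 in 26 and 0.67 and 0.70 in 23 each. The 5 commonest levels held 32.6% of its scores, against 43.9% to 63.0% of the scores above 0 in the other animals. What a level stands for is not stated by the authors.

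**Figure D2:**
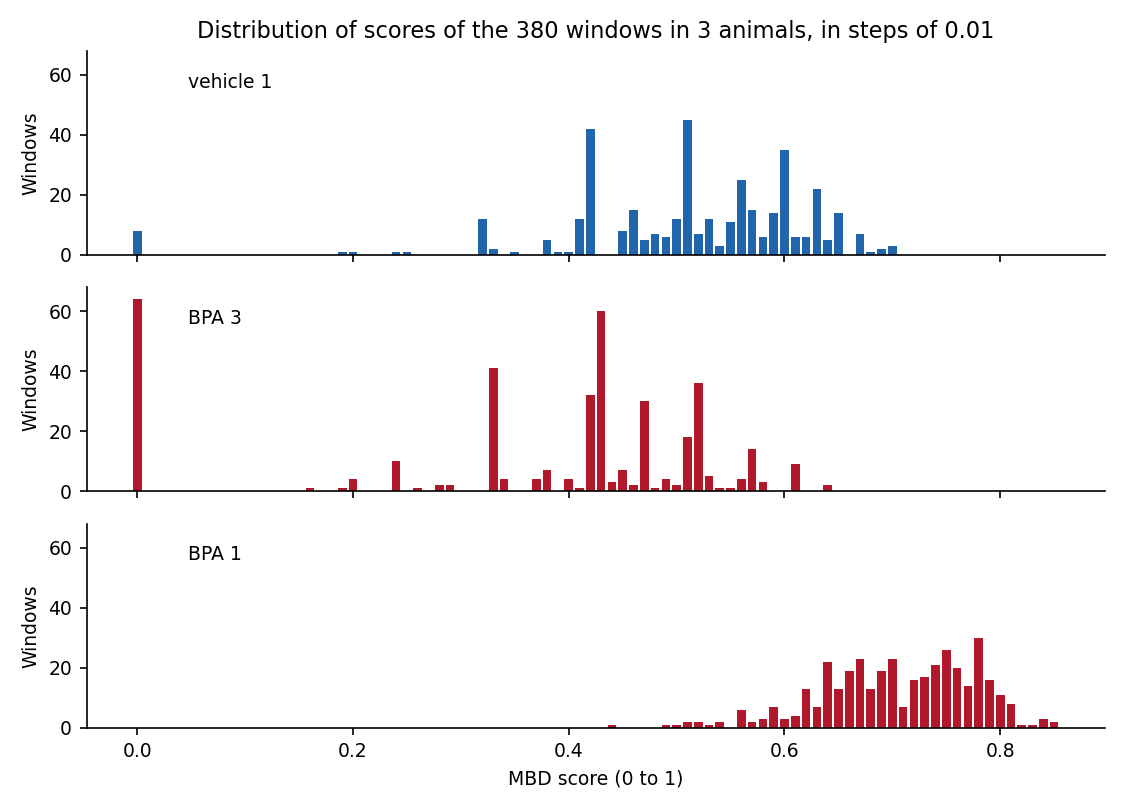
Number of the 380 windows (vertical axis) at each MBD score in steps of 0.01 (horizontal axis) in vehicle animal 1, BPA animal 3 and BPA animal 1. Vehicle 1 peaks at 0.42, 0.51 and 0.60, BPA 3 at 0, 0.33 and 0.43, and the scores of BPA 1 lie from 0.44 to 0.85.

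Within the 380 windows, few scores lay between 0 and 0.20. The rule left out windows at 0 in more than 2 animals, and low scores in those windows were not counted. The gap above 0 is therefore a description of the chosen windows and not of the score in general. The lowest score above 0 in the 380 windows was 0.11, and of the 4560 scores only 12 were above 0 and below 0.20, while 243 (5.33%) were exactly 0. Of the windows, 208 were above 0 in every animal and 172 (45.3%) were at 0 in 1 or 2 animals, 71 of them in 2. The zeros fell in BPA animals alone in 73 windows, in vehicle animals alone in 54 and in both groups in 45. By animal, the number of windows at 0 was 0, 16, 64, 15, 29 and 9 in BPA animals 1 to 6 and 8, 17, 15, 37, 16 and 17 in vehicle animals 1 to 6. Vehicle animal 4 was thus the control with most zeros, and it also had most zeros of the vehicle animals over all 1000 windows (222, against 130 to 184 in the other vehicle animals).

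Windows that dropped to 0 in some animal were close to the others where they had a score. The mean of the scores above 0, BPA animal 1 left out, had a median of 0.532 over the windows with no zero, 0.497 over those with 1 animal at 0 and 0.484 over those with 2. With zeros counted, the vehicle mean had medians of 0.538, 0.462 and 0.403 in these sets. The vehicle SD had medians of 0.0562, 0.0972 and 0.206. Each zero lowers a mean and widens an SD by arithmetic, and the rule used both the zeros and the mean. Its limit on the vehicle mean also left out 258 windows with no zero. Nothing is therefore read from these orders or from how close the sets lie.

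The rule made the windows steady by the count of zeros and set no limit on the spread of their levels. The vehicle mean ran from 0.20 to 0.598 with a median of 0.49. It was below 0.3 in 10 windows, from 0.3 to below 0.4 in 59, from 0.4 to below 0.5 in 135, and from 0.5 up to the limit in 176. At least 1 vehicle animal was at or above 0.60 in 193 windows. The SD over the vehicle animals had a median of 0.0719, against 0.0392 in the 267 windows with a higher vehicle mean. In BPA animals the median SD without animal 1 was 0.0853 against 0.0555. These SDs are a description, since zeros in vehicle animals lower the mean that the rule used. Over the members with no zero, the vehicle SD had a median of 0.0562. The rule split the sets by the vehicle mean, and the score levels lie further apart at lower scores. No difference in steadiness is therefore read from the SDs.

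Animals also shared little of the order of the windows. Across the 380 windows, the correlation between 2 vehicle animals had a median of 0.24 and lay between 0.11 and 0.35 over the 15 pairs. Across the 267 windows with a higher vehicle mean it lay between 0.55 and 0.70. Between the 5 BPA animals other than animal 1 it lay between 0.17 and 0.34 in the 380 windows. BPA animal 1 correlated with each of the other animals at 0.37 to 0.61. The limit on the vehicle mean narrows the range of scores, the levels are coarse and all points of a pair come from the same libraries, so these values describe the libraries and carry no test.

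The windows with the smallest spread, measured as the mean of the SDs within each group, had no zeros. At chr13:66119601-66119700 the vehicle scores were 0.42, 0.49, 0.47, 0.38, 0.45 and 0.49, and the BPA scores 0.56, 0.47, 0.45, 0.42, 0.45 and 0.47, in the order of animals 1 to 6. The groups overlapped, and only BPA animal 1 lay above the vehicle range. At chr16:49348901-49349000 the vehicle scores ran from 0.48 to 0.53 (median 0.495) and the BPA scores from 0.42 to 0.70 (median 0.525). The window chr5:120536801-120536900 ran from 0.46 to 0.53 in vehicle (median 0.49) and from 0.46 to 0.70 in BPA (median 0.505). At chr4:66474501-66474600 the 6 vehicle animals lay between 0.48 and 0.52, an SD of 0.0137 (n = 6), and the BPA animals between 0.37 and 0.68. In these last 3 windows BPA animal 1 was again the highest animal, and in chr16 and chr4 BPA animal 3 was the lowest.

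The windows with the largest spread each held a zero in both groups beside scores of 0.42 or more. At chr2:33586001-33586100 the vehicle scores were 0.56, 0.63, 0.69, 0.63, 0 and 0.63, and the BPA scores 0.80, 0.42, 0.43, 0.56, 0 and 0.67, in the order of animals 1 to 6. The zeros were in vehicle animal 5 and BPA animal 5. At chr9:105932501-105932600 vehicle animal 4 and BPA animal 5 were at 0, with the other vehicle animals at 0.51 to 0.63 and the other BPA animals at 0.42 to 0.74. The window chr12:40752601-40752700 was at 0 in vehicle animal 3 and BPA animal 5, and chr3:66856001-66856100 in vehicle animal 2 and BPA animal 3. In these windows the mean of the within-group SDs was 0.246 to 0.268.

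The 6 windows with the lowest vehicle mean had low scores in most animals as well as zeros. Lowest was chr11:89697401-89697500, at 0.38, 0.33, 0.24, 0, 0.25 and 0 in vehicle animals 1 to 6 (0.20 ± 0.163, SD, n = 6) and at 0.51, 0.42, 0.24, 0.38, 0.24 and 0.45 in BPA animals 1 to 6. At chr4:42967101-42967200 the vehicle scores were 0.45, 0.34, 0.40, 0, 0 and 0.20 (0.232 ± 0.198, SD, n = 6) and the BPA scores 0.19 to 0.52 with a median of 0.265. The scores overlapped between the groups in both windows, and vehicle animal 4 was at 0 in both.

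At chr1:145709601-145709700 no vehicle animal was at 0, and the scores ran from 0.11 in vehicle animal 4 to 0.34 in vehicle animal 2. BPA animal 2 was at 0 there and BPA animal 1 at 0.44, with the other BPA animals at 0.20 or 0.25. The windows chr2:147948401-147948500, chr6:112480701-112480800 and chr6:26011301-26011400 had vehicle means of 0.258, 0.273 and 0.283 and vehicle medians of 0.30, 0.32 and 0.32. Their BPA medians were 0.395, 0.445 and 0.415, and the groups overlapped in all of them. A lower vehicle mean is what placed these windows first, so the higher BPA medians are not read as a difference.

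At the border of the rule, members and neighbours were alike. Just inside were chr3:34252601-34252700 and chr3:35879601-35879700, both with a vehicle mean of 0.598, and chr1:180949201-180949300 with 0.597. Just outside, with a vehicle mean of exactly 0.60, were chr12:38067701-38067800, chr5:141488601-141488700 and chr9:21747701-21747800. The vehicle SDs of the former were 0.0264, 0.0293 and 0.0463, and those of the latter 0.0583, 0.111 and 0.0303, so the step across the limit was smaller than the spread between animals.

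By position, the windows were scattered over all 20 chromosomes with a median of 4350350 bp between neighbouring starts. None lay within 1000 bp of another. The closest pair, chosen after the values were seen, was chr3:14472901-14473000 and chr3:14474001-14474100, whose starts are 1100 bp apart. These neighbours had different levels in vehicle, 0.588 ± 0.0598 and 0.417 ± 0.0314 (SD, n = 6 each), and the 6 vehicle scores of one, 0.51 to 0.69, did not overlap those of the other, 0.38 to 0.45. The BPA scores, 0.51 to 0.78 and 0 to 0.60, did overlap, through BPA animal 1 at 0.60 in the second window.

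Chromosome X, of which a male carries a single copy, held fewer of these windows. Of the 51 deposited windows on X, 10 (19.6%) were among the 380, against 370 of 949 (39%) on the autosomes. The difference lay in the zeros: 18 of 51 windows on X (35.3%) were at 0 in at most 2 animals, against 66.3% on the autosomes, and of those the share below the limit was 55.6% on X and 58.8% on the autosomes. In each of the 12 animals a larger share of windows was at 0 on X than on the autosomes. It was 25.5% to 56.9% on X in the 11 animals other than BPA animal 1, and 12.3% to 31.9% on the autosomes. In BPA animal 1 it was 3.92% and 0.948%. The 10 X windows on the list had a median vehicle mean of 0.526, against 0.49 on the autosomes. The rule limits this mean, so nothing is read from it. Chromosome 7 had a share of members close to that of X, 12 of 59 windows (20.3%), and chromosome 4 the highest, 32 of 64 (50%). On chromosome 7, 25 of 59 windows (42.4%) were at 0 in at most 2 animals, the lowest such share of the autosomes. A low share was thus not particular to X. These counts carry no test, and how the authors chose windows by chromosome is not stated.

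**Figure D3:**
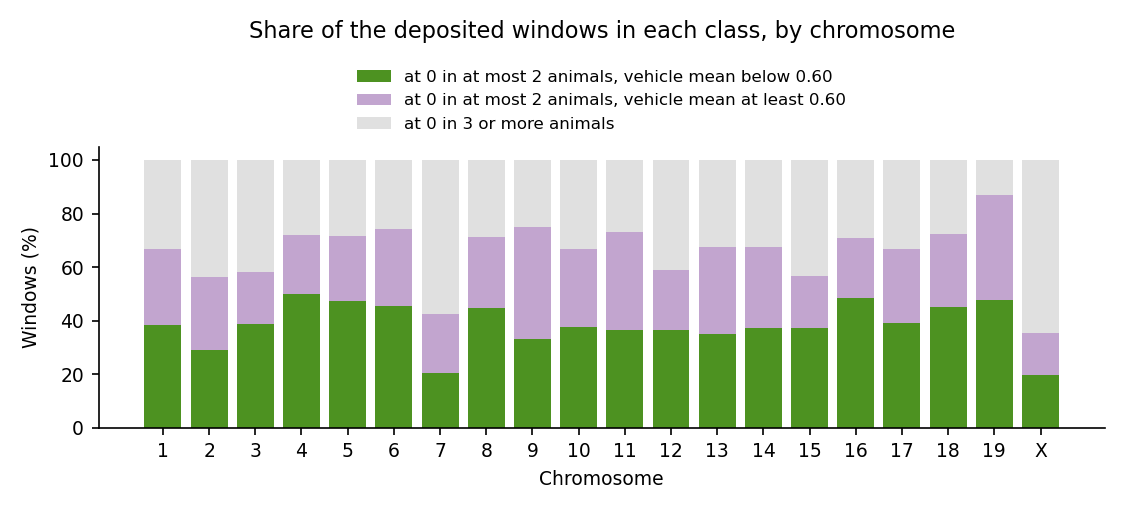
Percentage of the deposited windows on each chromosome that were at 0 in at most 2 animals with a vehicle mean below 0.60 (green), at 0 in at most 2 animals with a vehicle mean of at least 0.60 (purple) and at 0 in 3 or more animals (grey). The green share is 19.6% on X and 20.3% on chromosome 7 and reaches 50% on chromosome 4.

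For the 6 BPA animals, whose zeros but not whose mean entered the rule, the group mean lay below the limit in most of these windows. BPA animal 1 itself lay higher, with a median score of 0.71 over the 380 windows. The BPA mean was also below 0.60 in 328 of the 380 windows (86.3%), and in 363 (95.5%) when BPA animal 1 was left out. Among the 267 windows at or above the limit in vehicle, it was below 0.60 in 15, and in 48 without BPA animal 1. A BPA mean below 0.60 was also common without the rule. Over all deposited windows, the BPA mean had a median of 0.485 and an upper quartile of 0.625. The shares are therefore a description and not a separate result.

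**Figure D4:**
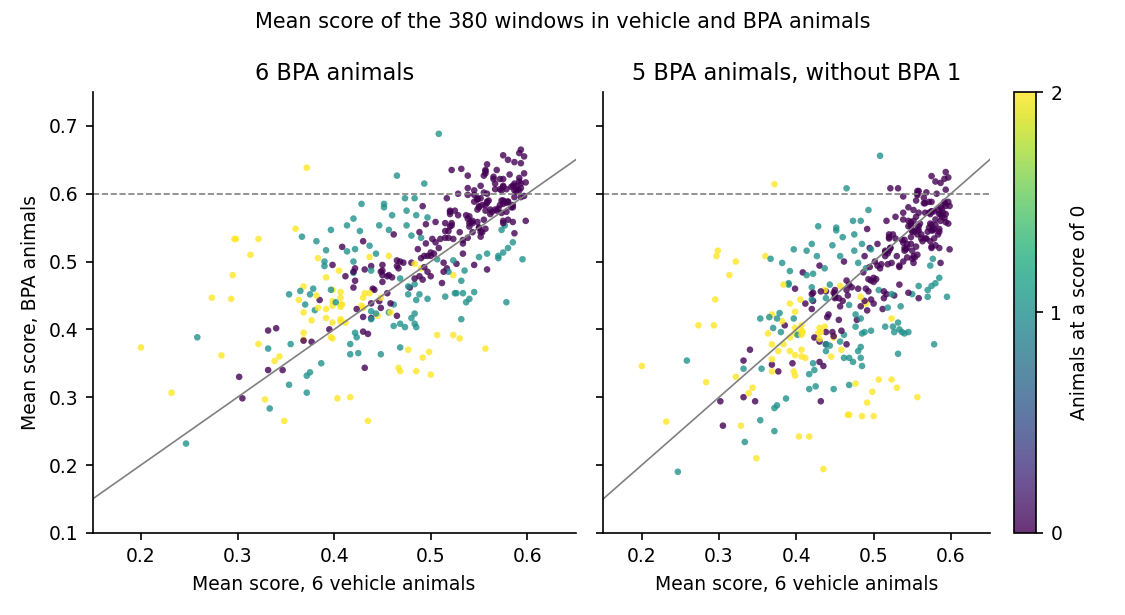
Mean MBD score over the 6 vehicle animals (horizontal axis) against the mean over the 6 BPA animals (left) or over 5 of them without BPA animal 1 (right) for each of the 380 windows, with colour for the number of animals at 0, the line of equal means in solid grey and the limit of 0.60 dashed. The BPA mean is below 0.60 in 328 windows on the left and in 363 on the right.

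The study set prenatal BPA against vehicle, and for these windows that contrast is only described, because the vehicle mean chose them. No window was called over the 1000 tested (limma on the score, Benjamini-Hochberg adjustment, 0 called, 0.0% of windows, smallest adjusted p = 1.0). At an unadjusted p under 0.05 there were 14 windows (1.4%), 5 of them among the 380 and all 5 higher in BPA, where 1.2% of all windows were higher at that level. Without BPA animal 1 the split turned, with 6 of the 380 windows at that level and 1 of them higher, against 34 of all windows and 5 of them higher. The BPA minus vehicle difference had a median of 0.0192 over the 380 windows, against 0.0167 over all 1000, and was above 0 in 250 of them (65.8%), against 646 of all 1000 (64.6%).

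The direction turned when BPA animal 1 was left out. Without it the median was -0.0173 over the 380 windows and -0.021 over all 1000, and the difference was above 0 in 131 of the 380 and 331 of the 1000. Without BPA animal 3 the median was 0.044 over the windows the rule then finds. Without both animals the median was 0.00417 over the same 380 windows and 0.00167 over all 1000, with 210 of the 380 and 512 of the 1000 above 0. The median half-width of the 95% interval for a single window was 0.172, so a difference of that size in a typical window would lie within the error.

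The windows with the largest differences, given as values, held zeros in 1 group. At chr19:25803901-25804000 the vehicle scores were 0.51, 0, 0.72, 0, 0.43 and 0.57 and the BPA scores 0.76, 0.60, 0.61, 0.63, 0.58 and 0.65, in the order of animals 1 to 6. The means were 0.372 ± 0.303 and 0.638 ± 0.0643 (SD, n = 6 each), and the groups overlapped through vehicle animal 3. With zeros treated as missing, the difference fell from 0.267 to 0.0808, and without BPA animal 1 it was 0.242. Next came chrX:36711201-36711300, chr8:74837901-74838000 and chr7:13859301-13859400, with BPA minus vehicle differences of 0.237, 0.235 and 0.212. Each had 2 vehicle animals at 0 and no BPA animal at 0. With zeros as missing their differences were 0.0883, 0.0858 and 0.0508, and without BPA animal 1 they were 0.211, 0.218 and 0.178. Without both BPA animals 1 and 3, the differences of the 4 windows were 0.243, 0.231, 0.239 and 0.196.

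In the other direction, chr17:85957501-85957600 had vehicle scores of 0.60, 0.65, 0.63, 0.42, 0.61 and 0.43 and BPA scores of 0.73, 0.51, 0.43, 0, 0 and 0.56. The difference in means was -0.185, and BPA animal 1 was the highest animal although its group mean was the lower. The windows chr16:74981401-74981500, chr13:24680901-24681000 and chr18:48577701-48577800 had differences of -0.17, -0.167 and -0.147. Each had 2 BPA animals at 0, with BPA animal 5 among them in all 3, and no vehicle animal at 0. With zeros as missing the differences were 0.000833 in chr17, -0.0375 in chr16, 0 in chr13 and 0.0225 in chr18, so that they shrank or turned sign. Leaving out 1 of the BPA animals at 0 brought them to -0.111 in chr17, -0.117 in chr16, -0.10 in chr13 and -0.079 in chr18. Without BPA animal 1 they were -0.257, -0.241, -0.228 and -0.213, and without BPA animals 1 and 3 they were -0.289, -0.275, -0.268 and -0.253.

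The authors' mark of vehicle animals as low or high in Fggy did not enter the rule, but the limit on zeros narrows this contrast. A window at 0 in all 3 animals of a set was left out. The low minus high difference ran from -0.313 to 0.34 over the 380 windows, against -0.513 to 0.483 over all 1000. Over the 1000 windows limma called 0 (0.0%), with a smallest adjusted p of 0.326, and the smallest over the 380 windows was 0.789. The median half-width of the 95% interval over the 380 windows was 0.153, so smaller differences could be missed. At an unadjusted p under 0.05 there were 16 of the 380 windows (4.21%), against 3.2% of all windows. Of these, 8 were higher in low-Fggy animals (2.11%, against 1.9% of all windows) and 8 lower (2.11%, against 1.3%). The 3 low-Fggy scores lay all above the 3 high-Fggy scores in 14 of the 380 windows (3.68%, against 3.2% of all windows), and all below them in 14 (3.68%, against 2.4%). These shares are near the background. When single animals were left out, the number of the 380 windows higher at that level ran from 3, without vehicle animal 2, to 16, without vehicle animal 1. The low minus high difference had a median of 0.01 over the 380 windows and over all 1000. Without vehicle animal 4 it turned to -0.0167 and -0.00833, and without vehicle animal 2 it was 0.00167 over both. The median score over the 380 windows was 0.50 to 0.52 in the low-Fggy animals and 0.49 to 0.52 in the high-Fggy animals. In RNA, the summed signal of 5 epididymal epithelium markers was 12.1, 591.9 and 4700.5 in high-Fggy animals 1, 4 and 6. It was 24.3, 7.64 and 18.4 in low-Fggy animals 2, 3 and 5. Most of it came from the epididymal genes Adam7 and Crisp1, while Lcn5 was below 1 in each of the 6. Defb30 was 3.02, 0 and 2.95 in high-Fggy animals 1, 4 and 6. Cst8 was highest in low-Fggy animal 2, at 3.19, and 0 in high-Fggy animal 6. The part of such tissue in these values was not tested.

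The 6 windows with the smallest p in this contrast, 3 in each direction, did not pass the adjusted threshold. At chr13:68125301-68125400 the low-Fggy animals 2, 3 and 5 were at 0.61, 0.57 and 0.59 and the high-Fggy animals 1, 4 and 6 at 0.50, 0.46 and 0.47. The groups did not overlap, and the difference was 0.113 with a 95% interval of 0.0418 to 0.185 (limma adjusted p = 0.789, exact permutation p = 0.1, the smallest that 3 against 3 animals can give). The BPA animals ran from 0.33 to 0.70 there, across both sets.

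At chr1:165868701-165868800 the low-Fggy scores were 0.67, 0.65 and 0.61 and the high-Fggy scores 0.60, 0.51 and 0.52, a difference of 0.10 (interval 0.0212 to 0.179). At chr18:30537101-30537200 they were 0.56, 0.56 and 0.57 against 0.51, 0.42 and 0.43, a difference of 0.11 (0.0147 to 0.205). The sets did not overlap in either window, and the limma adjusted p was 0.92 and the exact permutation p 0.1 in both.

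In the other direction, chr12:4135201-4135300 was at 0.56, 0.51 and 0.52 in the low-Fggy animals and at 0.63, 0.63 and 0.60 in the high-Fggy animals, a difference of -0.09 (interval -0.151 to -0.0295, limma adjusted p = 0.871). At chr8:40136701-40136800 the scores were 0.51, 0.56 and 0.52 against 0.70, 0.63 and 0.60, a difference of -0.113 (-0.193 to -0.034, limma adjusted p = 0.92). The sets did not overlap in these windows. At chr10:77522101-77522200 they met at 0.56, with 0.42, 0.56 and 0.43 in low-Fggy against 0.69, 0.56 and 0.63 in high-Fggy animals, a difference of -0.157 (-0.284 to -0.0297, limma adjusted p = 0.92). The exact permutation p was 0.1 for the chr12 and chr8 windows and 0.2 for the chr10 window. The BPA scores ran from 0.52 to 0.79 in chr12, from 0.43 to 0.76 in chr8 and from 0.43 to 0.79 in chr10, overlapping both sets.

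**Figure D5:**
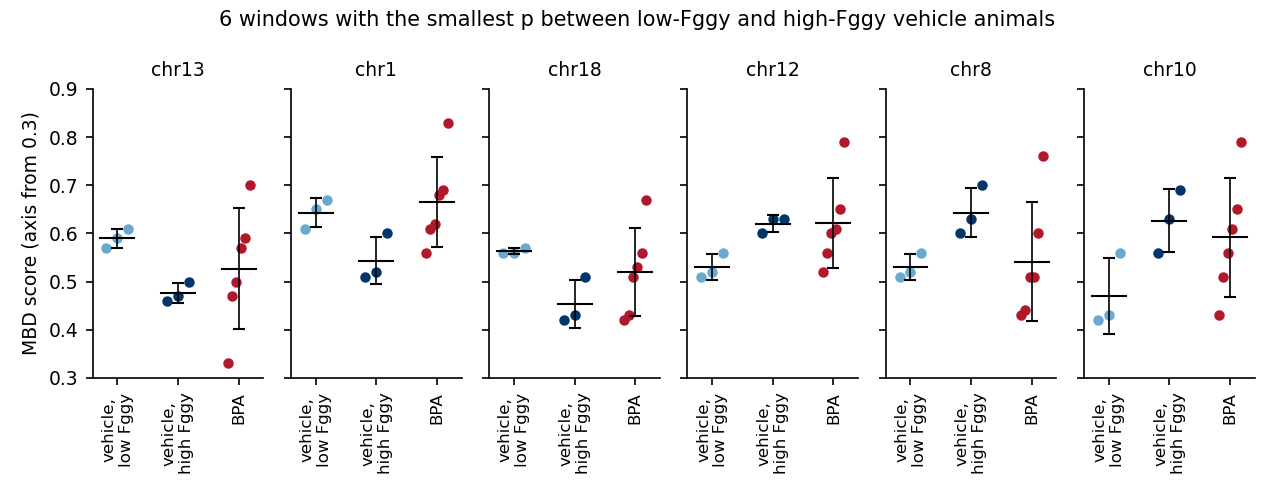
MBD score (vertical axis, starting at 0.3) of the 6 windows with the smallest p between low-Fggy and high-Fggy vehicle animals, named by chromosome, with a point per animal, the mean as a bar and the SD as whiskers (3, 3 and 6 animals). The 3 low-Fggy and 3 high-Fggy scores do not overlap in 5 of the windows and meet at 0.56 in the chromosome 10 window. The 6 BPA animals spread over a wider range than either set of 3, with BPA animal 1 the highest of them in each window. Since the windows were picked by the p between the vehicle sets, nothing is read from that range.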

How the data were processed

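Methylated DNA and RNA of epididymal fat were sequenced on SOLiD libraries, per the labels' protocols. The authors deposited a score per 100 bp window in mm9 coordinates, and the submitters' processing notes name mm9 and edgeR. The name of the deposited table also holds MEDIPS, and the aligner, settings and window selection are not stated there. The deposited RNA signal is a normalized value per gene, judged from its values, and was used here only for tissue markers. The 48 columns of per-sample values in 4 shorter RNA tables were not used. Depth is unknown for both assays.

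Groups and animal numbers follow the sample descriptions, and a column was matched through the animal identifier in a sample's title. Means were taken on whole hundredths, so that a vehicle mean of exactly 0.60 falls outside the rule. All 1000 windows were tested on the score itself, with no logarithm, with limma 3.58.1 in R 4.3.3 (intensity trend, two-sided, Benjamini-Hochberg at 0.05). The limma step was tested on simulated data, drawn from a normal distribution without the levels and zeros of the real scores. For BPA against vehicle it called 8% of windows changed by 0.1, 46% by 0.2 and 74% by 0.3, and 6 unchanged windows (0.75%). For low against high Fggy it called 0%, 4% and 10% of these, and 44% of windows changed by 0.4. The simulated spread was pooled over BPA and vehicle animals in both contrasts, with no offset of whole libraries. Over all windows the median SD was 0.0853 in vehicle and 0.136 in BPA. The shares for low against high Fggy, a contrast of vehicle animals alone, may therefore be too low. For the low against high Fggy contrast the 3 against 3 exact permutation p is also given. Windows named are the extremes of vehicle mean, spread and each difference, and those next to the limit. The windows, lists and comparisons were chosen with earlier results of these data known.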

Additional observations from a re-analysis of the deposited data

Results flagged for a closer look

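In 72 sets of 6 animals, formed by the 34 named windows and 2 summaries in each exposure group, an animal was singled out when its gap to the nearest other animal was more than 0.625 of the whole range of its group. This was the case in 12. Chance gives about 1 set in 20 where sets are not picked by their values, but these windows were named as extremes, often through a lone 0, so that rate does not apply to them. BPA animal 1 had a median score of 0.71 over the 380 windows, against 0.43 to 0.51 in the other BPA animals. Vehicle animal 4 had 37 of these windows at 0, against 8 to 17 in the other vehicle animals.

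Among single windows, a score of 0 stood apart in chr6:26011301-26011400 (vehicle animal 6, others 0.32 to 0.41), chr2:33586001-33586100 (vehicle animal 5, others 0.56 to 0.69), chr9:105932501-105932600 (vehicle animal 4, others 0.51 to 0.63) and chr12:40752601-40752700 (vehicle animal 3, others 0.56 to 0.61). In chr3:66856001-66856100 it stood apart in both groups, through vehicle animal 2 (others 0.43 to 0.60) and BPA animal 3 (others 0.56 to 0.73). In chr5:141488601-141488700, just outside the limit, BPA animal 3 was at 0 and the other BPA animals at 0.56 to 0.79. High scores stood apart for BPA animal 1 in chr13:66119601-66119700 (0.56, others 0.42 to 0.47) and chr5:120536801-120536900 (0.70, others 0.46 to 0.52), and for vehicle animal 5 in chr4:66474501-66474600 (0.52, others 0.48 to 0.49).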

How the results depend on the processing

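The rule found 380 windows, 281 with a limit of 0.55, 477 with 0.65 and 380 to 431 when single animals were left out. With no animal allowed at 0 it found 208, of which 160 also had a BPA mean below the limit. Of the 380 windows 328 had such a BPA mean, and 332 to 363 of the windows found when single animals were left out. The median BPA minus vehicle difference, 0.0192, was -0.00125 with libraries shifted to a common median, 0.0025 over the 431 windows found without BPA animals 1 and 3 (an alternative chosen after seeing the data), and -0.0173 to 0.044 when single animals were left out. The median SD within groups, 0.110, was 0.140 with a limit of 0.55, 0.0969 with 0.65, 0.0826, 0.0957 and 0.142 with 0, 1 and 3 animals allowed at 0, and 0.128 with the limit set on BPA animals. It was 0.0922 with shifted libraries, 0.0851 with zeros as missing, 0.085 without BPA animals 1 and 3, and 0.0942 to 0.121 when single animals were left out. Limma called 0 windows for BPA against vehicle under every alternative run. The low against high Fggy contrast gave 8 calls without the intensity trend, all of them windows at 0 in at least 3 animals and so none among the 380, and 0 under the other alternatives. With the animal number as a replicate block, BPA against vehicle again gave 0 calls, with 16 windows at an unadjusted p under 0.05 against 14. Same-numbered animals did not deviate together (correlations -0.0909 to 0.0127). With coarse scores and unlabelled litters, this cannot exclude a pairing of animals. The unknown coverage limits every value given here.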
